A study of Mus musculus with 3 samples.

Results

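The untreated C3H10T1/2 culture was profiled on 1 array, 1 of the 3 samples of the series, and its baseline gene expression is described here without reference to the other 2. Its members are the probes whose spots the scanner software called well above background. These called probes numbered 17221 of the 41170 probes with a usable spot (41.8%). By gene, at least 1 probe was called for 10638 of 19842 genes with an official symbol (53.6%). The remaining 9204 genes (46.4%) were not well above background, which sets an upper bound on their signal and does not show that the transcript was missing.

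The series set this culture beside cells given hexavalent chromium at 1 uM or 0.01 uM for 48 h, starting 24 h after plating. The untreated cells were an otherwise identical group of 3 flasks of 25 cm2, each started with 2000 cells in DMEM and fed with fresh medium until day 15. They were then lifted with trypsin, and part of them went to RNA isolation. No strain, passage number, clone or serum is given, nor whether RNA of the 3 flasks was pooled. With 1 array there was no replicate, so no test was made, and no value below carries an error between cultures.

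C3H10T1/2 is an established mouse line of embryonic fibroblast-like cells that grows as a contact-inhibited sheet and is used in transformation assays. It counts as multipotent: with suitable inducers its cells can take on muscle, fat, cartilage or bone features. Mesenchymal cells are known by collagen-rich matrix, the intermediate filament vimentin and receptors for platelet-derived growth factor. Lineage choice in such cells is tied to regulators such as Myod1 for muscle, Pparg for fat, Sox9 for cartilage and Runx2 for bone.

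Signals are given as log2 of the processed Cy3 signal minus the array's 75th percentile over all probes, so that 0 marks that percentile. The median of the 10638 detected genes, each represented by its brightest detected probe, was 1.36. Their middle 50% lay between -0.28 and 3.01, and saturation began at 6.37. The median SD between replicate spots of 1 probe was 0.058 (123 probes with at least 7 spots), and the software's error of a single detected gene lay mostly between 0.14 and 0.19. The software's error rests on a multiplicative error of 0.1 set in the file header, so its lower end is not a measured spread. Neither the SD nor this error covers more than spots and scanner. A probe's brightness also depends on its sequence and labelling, so the order of signals is an order of probes and not of transcript amounts. In a bulk sample, few cells with much of a transcript and many cells with little of it cannot be told apart. The lowest signal of a called probe was -2.98 and the highest of a probe that was not called was -2.41, with 240 uncalled probes inside this overlap.

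All 6 fibroblast markers were well above background, against 53.6% of all named genes. The chains of type I collagen, the main fibrillar collagen of connective tissue, each had a saturated probe (Col1a1 and Col1a2, both at 6.52). Vim, which encodes vimentin, stood at 6.47 and was unsaturated. Saturation began at 6.37, so the rank of Vim among the brightest genes is not exact. Pdgfrb, the beta receptor for platelet-derived growth factor, stood at 5.04, and Pdgfra, the alpha receptor, at 1.78. Thy1, a surface glycoprotein of fibroblasts, stood at 2.84 from a probe on chromosome 9 from 43856600 to 43856659 (mm9). These calls come from the rule that selected the probes of this part, so they describe the array and do not test the label of a fibroblast-like line. Detection also rose with the number of probes of a gene, as given below.

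The markers also showed how far a gene's value rests on its probe. The 3 Col1a1 probes read 6.52, 4.15 and -0.89, all called. The second probes of Col1a2 (-5.26), Vim (-4.87) and Thy1 (-3.22) were not well above background. Both Pdgfra probes were called, at 1.78 and 1.21, and Pdgfrb had 1 probe. So 3 of the 6 markers were called by every probe they had.

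**Figure D1:**
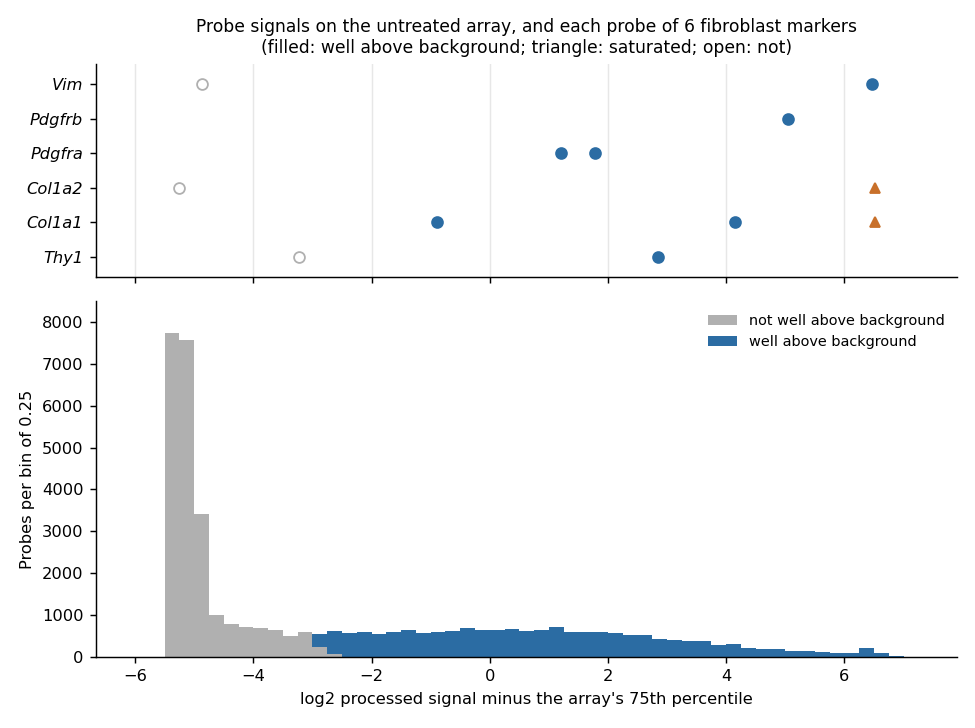
The lower panel counts probes of the untreated array by signal (x axis, log2 processed signal minus the array's 75th percentile, bins of 0.25), with called probes stacked on uncalled ones. The upper panel places each probe of the 6 fibroblast markers on the same axis, and 3 markers have 1 open point, a probe that was not called, far left of the called one.

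Across the array, 8716 genes had 2 or more probes. All probes were called for 32.5% of them, some for 37.3% and none for 30.2%. The share of genes detected was 41.0% with 1 probe, 64.8% with 2 and 78.8% with 3 or more. Where 2 or more unsaturated probes of a gene were called (3955 genes), their signals spanned a median of 2.10 on the log2 scale. The position of the probe moved with these disagreements. Among 2086 genes whose 2 probes start at least 5000 bases apart, the probe nearer the 3′ end alone was called for 654 and the other alone for 93, so that 87.6% of single calls were of the 3′ probe. For 914 genes with probes under 500 bases apart these counts were 49 and 45. Labelling was primed with oligo-dT, and its part in these calls was not tested. Of 635 detected genes in the 46 lists described below, 181 had another probe without a call. Where at most 50% of a gene's probes were called, the numbers of called and measured probes are given beside its value or at its first mention.

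The promoters of detected genes differed in base composition from those of the other genes. RefSeq windows of 250 bases before to 50 after the start (GRCm38.p6) were matched to 12969 genes with exactly 1 window. CpG observed over expected, the number of CG pairs relative to the C and G content, had a median of 0.80 in 6799 detected genes and 0.30 in 6170 others. A ratio of at least 0.6 was found for 78.4% of the detected and 25.4% of the other genes. Read the other way, 77.3% of genes with such CpG-rich promoters were detected, 40.4% of those at 0.3 to 0.6 and 12.8% of those below 0.3.

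The 6 upstream stretches below show both ends of this range. They were chosen after their values were seen: a CpG-rich mesenchymal homeobox gene (Prrx2), a CpG-rich mesenchymal regulator (Twist1), citrate synthase (Cs), the bright Vim, whose CpG ratio is lower, and a keratin (Krt8) and albumin (Alb), neither of which was well above background. Each is the 250 bases before the start, 5′ to 3′ on the gene's strand, with CG pairs in capitals. On GRCm38.p6 they lie at chr2:30845117-30845366 (plus strand), chr12:33957421-33957670 (plus), chr10:128337477-128337726 (plus), chr2:13574061-13574310 (plus), chr15:102004343-102004592 (minus) and chr5:90460620-90460869 (plus), in the order printed.
Prrx2: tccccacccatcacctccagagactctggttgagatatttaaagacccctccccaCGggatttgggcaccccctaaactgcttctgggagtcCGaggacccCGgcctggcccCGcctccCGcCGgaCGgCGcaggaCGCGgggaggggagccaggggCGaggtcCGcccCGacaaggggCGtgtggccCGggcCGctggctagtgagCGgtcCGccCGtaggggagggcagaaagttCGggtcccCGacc
Twist1: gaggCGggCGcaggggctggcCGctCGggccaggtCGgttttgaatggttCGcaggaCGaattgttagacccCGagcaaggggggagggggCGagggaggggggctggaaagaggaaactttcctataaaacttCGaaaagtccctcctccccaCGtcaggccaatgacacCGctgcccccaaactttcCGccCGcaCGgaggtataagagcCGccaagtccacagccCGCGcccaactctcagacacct
Cs: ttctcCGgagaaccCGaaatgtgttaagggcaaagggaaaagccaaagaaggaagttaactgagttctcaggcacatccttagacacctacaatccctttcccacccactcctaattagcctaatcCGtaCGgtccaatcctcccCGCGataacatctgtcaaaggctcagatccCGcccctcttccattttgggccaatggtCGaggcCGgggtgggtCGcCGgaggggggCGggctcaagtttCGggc
Vim: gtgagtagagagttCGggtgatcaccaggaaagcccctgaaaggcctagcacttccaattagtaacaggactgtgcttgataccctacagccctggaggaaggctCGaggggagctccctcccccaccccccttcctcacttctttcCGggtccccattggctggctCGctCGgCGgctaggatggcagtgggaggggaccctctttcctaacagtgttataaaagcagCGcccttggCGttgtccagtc
Krt8: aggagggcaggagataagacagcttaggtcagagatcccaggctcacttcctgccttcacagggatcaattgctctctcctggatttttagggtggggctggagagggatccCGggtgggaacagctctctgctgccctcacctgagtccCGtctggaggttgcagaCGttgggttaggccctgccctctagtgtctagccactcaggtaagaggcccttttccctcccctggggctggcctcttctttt
Alb: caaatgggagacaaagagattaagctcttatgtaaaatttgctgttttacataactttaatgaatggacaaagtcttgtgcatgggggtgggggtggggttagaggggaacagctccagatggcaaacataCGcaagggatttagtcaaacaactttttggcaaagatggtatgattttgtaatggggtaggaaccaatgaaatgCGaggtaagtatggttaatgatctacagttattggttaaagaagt

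Prrx2 held 21 CG pairs in this stretch, Twist1 18 and Cs 13, against 8 in Vim, 3 in Krt8 and 2 in Alb. The CpG ratio of the stretch was 0.69 for Prrx2, 0.74 for Twist1 and 0.69 for Cs. It was 0.38 for Vim, 0.14 for Krt8 and 0.26 for Alb. Over the whole window the ratio of Vim was 0.42, in the middle class of 0.3 to 0.6, while its signal was near saturation. A TATAAA on the gene's strand begins at position -32 from the start in Vim, -126 in Twist1 and -1 in Krt8, and none was found in the windows of the other 3 genes.

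The share of CpG-rich promoters was 67.9% in the dimmest 25% of detected genes, 80.7% and 82.8% in the next 2 groups of 25% and 82.2% in the brightest. TATAAA on the gene's strand, the core of the TATA box, was found anywhere in the window of 4.77% of detected and 12.7% of the other genes, and in 8.32% of all windows of the table. In the brightest 25% its share was 6.76%, and 19 of 119 saturated genes held it. By list, CpG-rich promoters were found for 94.4% of 18 cell cycle genes, 81.8% of 22 citrate cycle genes and 76.3% of 38 mesenchymal transcription factors. They were found for 30.0% of 20 elastic fibre and matrix glycoprotein genes, and for none of 10 bone genes or 13 blood cell genes. The share over all 12969 genes was 53.2%. List shares did not always go with calls. CpG-rich promoters were found for 76.9% of 13 Wnt ligands, 76.9% of 13 Sox genes and 69.2% of 13 neural and glial genes. Of the measured members of these lists, 15.8%, 21.1% and 24.0% were called, against 77.8% of elastic fibre and matrix glycoprotein genes. A match of letters describes the window and is no evidence that a factor binds there.

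**Figure D2:**
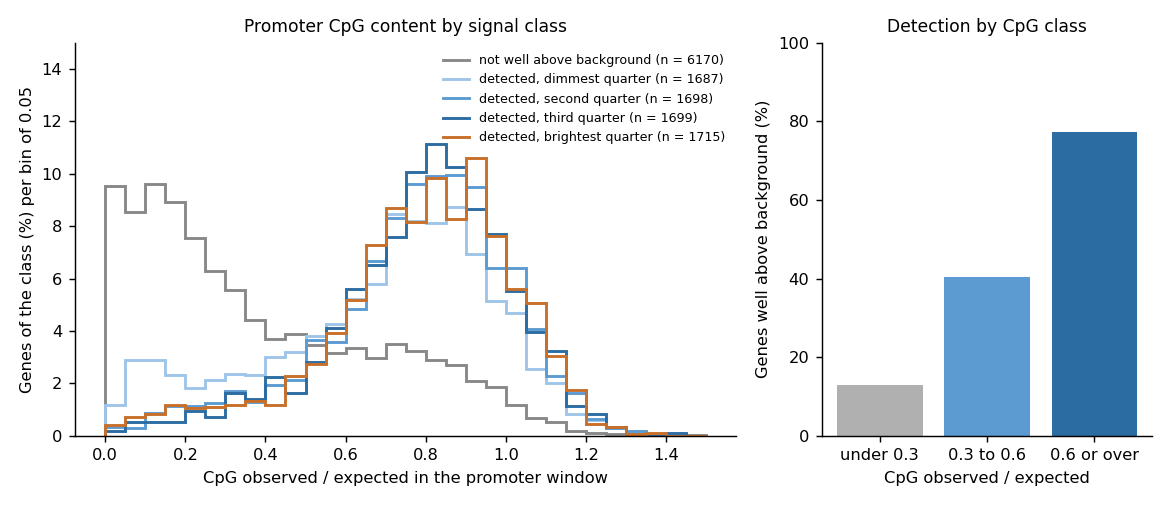
Left, the distribution of CpG observed over expected in the promoter window (x axis) as the percentage of genes of each class per bin of 0.05 (y axis, the last bin open above), for genes not well above background and 4 groups of 25% of detected genes by signal. Right, bars from 0 give the share of genes detected in 3 CpG classes, 12.8%, 40.4% and 77.3%.

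Stromal surface proteins other than the fibroblast markers were called for 18 of 26 (69.2%, beside 53.6% of all genes). The tetraspanins Cd63 and Cd81 were saturated. Cd248, the stromal antigen endosialin, stood at 5.68, Cd9 at 5.53 (1 of 2 probes) and Ly6a, the stem cell antigen Sca-1, at 5.19. The adhesion molecules Cd44 (4.30), Ncam1 (3.69) and Vcam1 (3.47) were called by some of their probes, and the pericyte proteoglycan Cspg4 (3.97) by all 3. Cd34, a marker of blood-forming and some stromal progenitors, was at -1.28, and Eng, the TGF-beta co-receptor endoglin, at -0.28. Nt5e, Mcam, Ngfr, Lepr, Fap, Dpp4, Icam1 and Bst1 were not well above background. The marrow stromal markers Lepr and Nt5e were thus without a call, while Sca-1, Cd44 and Vcam1 had one.

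Of 82 transcription factors listed for mesenchyme, 50 were called (61.0%, beside 53.6% of all genes). The list also holds widely expressed factors such as Cbfb, Srf, Mef2d, Yap1 and the Tead and nuclear factor I genes, all called. Its share is thus not one of mesenchymal regulators alone. The homeobox genes Prrx2 (4.90) and Prrx1 (3.97, 5 of 6 probes), which mark limb and craniofacial mesenchyme, were among the 6 brightest of the list. The others were the Runx partner Cbfb (4.43), Nfic, Snai2 and Mef2d (4.07). All 4 zinc finger repressors of the epithelial programme listed were called, Snai2 at 4.17, Zeb1 at 2.60, Snai1 at 2.44 and Zeb2 at 1.72. Twist1 stood at 1.40 and its relative Twist2 at 0.54. Forkhead genes of paraxial and lateral mesoderm were called as well: Foxc1 at 2.80, Foxc2 at 2.44, Foxf2 at 2.23 and Foxd1 at 1.95. The Hippo effector Wwtr1 (3.67) and its partners Tead1 to Tead4 were called, with Tead1 at 3.32 and the other 3 below 0.

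Several patterning regulators were without a call. They include Tcf21, Foxf1, Foxl2, Osr2, Meox1, Meox2, Hic1, En1, Lmx1b and Shox2, while Osr1, an early intermediate and limb mesoderm gene, was at 2.48. All 3 Alx genes of the facial and limb bud mesenchyme, the heart regulators Hand1, Hand2, Gata4 and Nkx2-5, and the somite gene Nkx3-2 were not called. The tendon regulators Mkx (0.40) and Scx (-0.44) were called, Scx in the dimmest 25% of detected genes. All 4 nuclear factor I genes were called, from Nfia at 1.69 to Nfic at 4.38.

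Skeletal muscle genes were called for 3 of 22 (13.6%, beside 53.6% of all genes). With the software's looser flag, a spot positive and significant against background, 8 of 22 were called, beside 66.2% of all genes. None of the 6 muscle regulators was well above background: Myod1, Myf5, Myf6 and Myog, which set the myogenic programme, and Pax3 and Pax7, which mark its progenitors. Of 12 sarcomere genes only Acta1, skeletal actin, was called (-0.01). The other 2 called members were Chrna1, a subunit of the acetylcholine receptor (-1.31, 1 of 2 probes), and Des, desmin (-2.94), which lay at the edge of detection.

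Adipocyte genes were called for 10 of 21 (47.6%), close to the 53.6% of all genes. The early regulators Cebpd (saturated) and Cebpb (5.31), which precede Pparg in fat differentiation, were called. Pparg, the master regulator of fat cells, stood at 1.40, and Cebpa, its late partner, at -1.23 (1 of 2 probes). Fabp4, a fatty acid carrier of fat cells and macrophages, was called by 3 of 3 probes, from -0.81 to 4.56. Dgat2, which makes triglyceride, was called by 3 of 3, from 0.13 to 4.11. The brightest probe of each read above the 1 Pparg probe, and the dimmest of each read below it. The lipases Pnpla2 (1.63), Lpl (1.14) and Lipe (-2.13), which release fatty acids from stored or circulating fat, were called, as was Zfp423, a regulator of fat precursors (-1.33, 1 of 2 probes). The lipid droplet genes Plin1 and Cidec of the list were not called, while the lipid droplet gene Plin2, outside the list, was saturated. The secreted factors Adipoq, Lep and Cfd were not called. Nor were the fatty acid transporter Cd36, the insulin-responsive glucose carrier Slc2a4, and the brown fat genes Ucp1, Cidea, Prdm16 and Ppargc1a.

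Cartilage genes gave 7 calls among 20 (35.0%, beside 53.6% of all genes). Sox9, the regulator of chondrocyte fate, was called by 3 of 3 probes with the brightest at 3.56. Col2a1, the type II collagen of cartilage, was at 3.13 (2 of 3 probes), Col11a1 at 0.32 (1 of 3) and Comp at -0.20. The aggregating proteoglycan Acan was not called, nor were its link protein Hapln1, the 3 type IX collagen genes, Matn1, Matn3, Prg4, Col10a1 of hypertrophic cartilage, or the signal Ihh. Of the partners of Sox9 in cartilage, Sox5 was not called and Sox6 was called by 1 of 5 probes (-2.47).

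Bone genes gave 9 calls among 18. Spp1, osteopontin, was saturated and Sparc, osteonectin, stood at 6.44, and both are also made by many other stromal cells. Runx2, the early osteoblast regulator, was at 1.74 (3 of 4 probes), and Tnfrsf11b, the decoy receptor that restrains osteoclast formation, at 1.56. The remaining calls were dim: Dlx5 -1.15, Dmp1 -1.44, Bglap -1.77, Sost -2.13 (1 of 2 probes) and Phex -2.25. Bglap has near-identical copies in the mouse genome, so its value is uncertain. Sp7, which acts after Runx2, was not called, nor were the mineralisation enzyme Alpl, the matrix protein Ibsp, Mepe, Ifitm5, Pth1r, Tnfsf11 or Fgf23.

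Smooth muscle and pericyte genes were called for 16 of 24 (66.7%, beside 53.6% of all genes). Acta2, smooth muscle actin and a mark of activated fibroblasts, was saturated (4 of 5 probes called). Tagln2 (6.07), Tpm1 (6.03), Tpm2 (4.91) and Cnn2 (4.81) were bright. They encode actin-binding proteins of many cell types, so the share of the list is not one of smooth muscle genes alone. More specific contractile genes were dimmer, with Smtn at 3.03, Actg2 at 2.18, Lmod1 at 1.99, Myl9 at 1.24 and Tagln at 1.19. The smooth muscle myosin Myh11, calponin Cnn1 and the coactivator Myocd, which mark mature smooth muscle, were not called. Of the pericyte genes, Cspg4 and Notch3 (1.95) were called, while Rgs5, Kcnj8, Abcc9 and Higd1b were not.

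**Figure D3:**
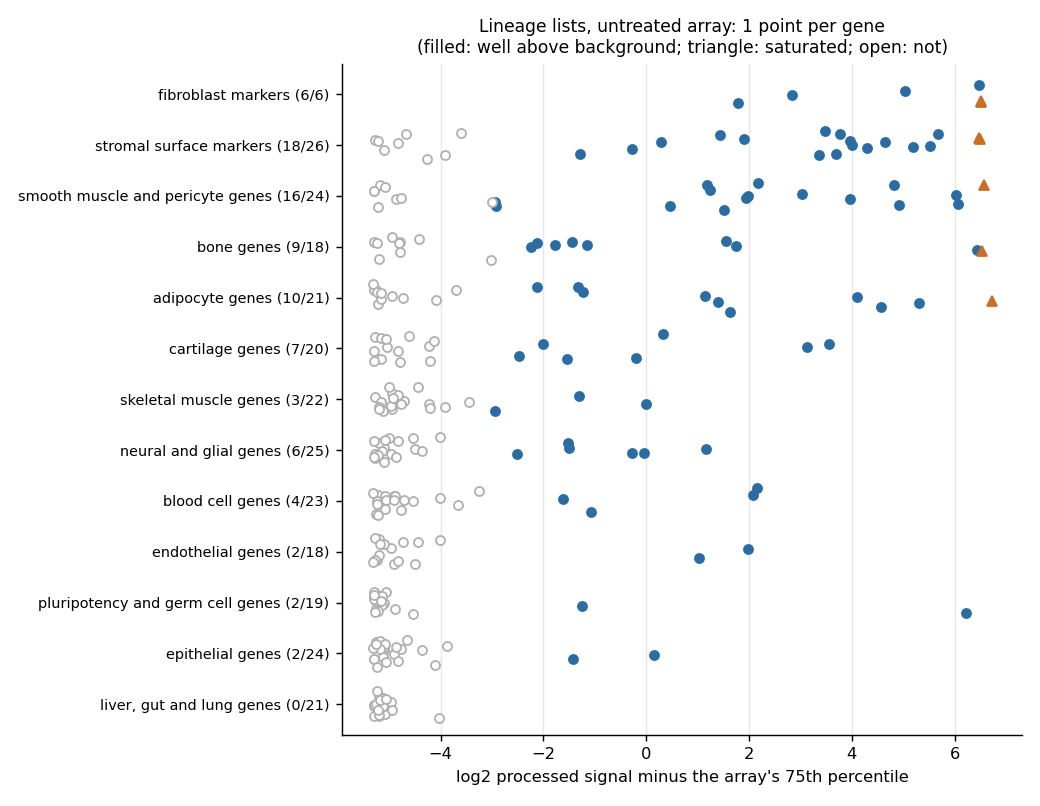
Each point is a gene of a lineage list on the untreated array, placed by its signal (x axis, log2 processed signal minus the 75th percentile), with called and measured members in brackets. The fibroblast, stromal and smooth muscle lists hold most of the points right of 2, the liver, gut and lung list has no filled point, and vertical scatter within a row has no meaning.

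Of 24 epithelial genes, Trp63 (0.15, 1 of 3 probes) and Krt7 (-1.42, 1 of 2) were called, while Epcam, Cdh1, Krt5, Krt14, Krt8, Krt18, Krt19 and Cldn3 were not. Of 18 endothelial genes, the vascular growth factor receptor Flt1 (1.98, 3 of 5 probes) and Vwf (1.03, 2 of 3) were called, and Pecam1, Cdh5, Kdr, Tek and Tie1 were not. Of 23 blood cell genes, Cd14 (2.16), Cd68 (2.08), Lyz2 (-1.07, 1 of 2 probes) and Itgb2 (-1.63) were called. The leukocyte antigen Ptprc and the macrophage genes Adgre1, Csf1r, Itgam, Tyrobp and Fcer1g were not. The shares called were 8.33% of epithelial, 11.1% of endothelial and 17.4% of blood cell genes, beside 53.6% of all genes. The 3 counts behind these shares moved with the rule of detection. With the looser flag 9 epithelial, 7 endothelial and 12 blood cell genes were called, beside 66.2% of all genes. Where every probe of a gene had to be called, which 37.2% of all genes met, no epithelial or endothelial gene remained.

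Of 25 neural and glial genes 6 were called (24.0%, beside 53.6% of all genes), led by Nes, an intermediate filament of many dividing progenitors (1.17). The others were Gad1 (-0.04), Map2 (-0.28, 1 of 5 probes), Tubb3 (-1.50), S100b (-1.53) and Mbp (-2.51, 1 of 3). Of 19 pluripotency and germ cell genes, Klf4 (6.22), which many adherent cell types express, and Dppa5a (-1.25, 1 of 2 probes) were called, while Pou5f1, Nanog, Sox2, Zfp42, Lin28a and Ddx4 were not. None of 21 liver, gut and lung genes was called, among them Alb, Afp, Ttr, Hnf4a, Foxa1, Foxa2, Cdx2, Nkx2-1 and Sftpc. With the looser flag 2 of these 21 were called.

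**Figure D4:**
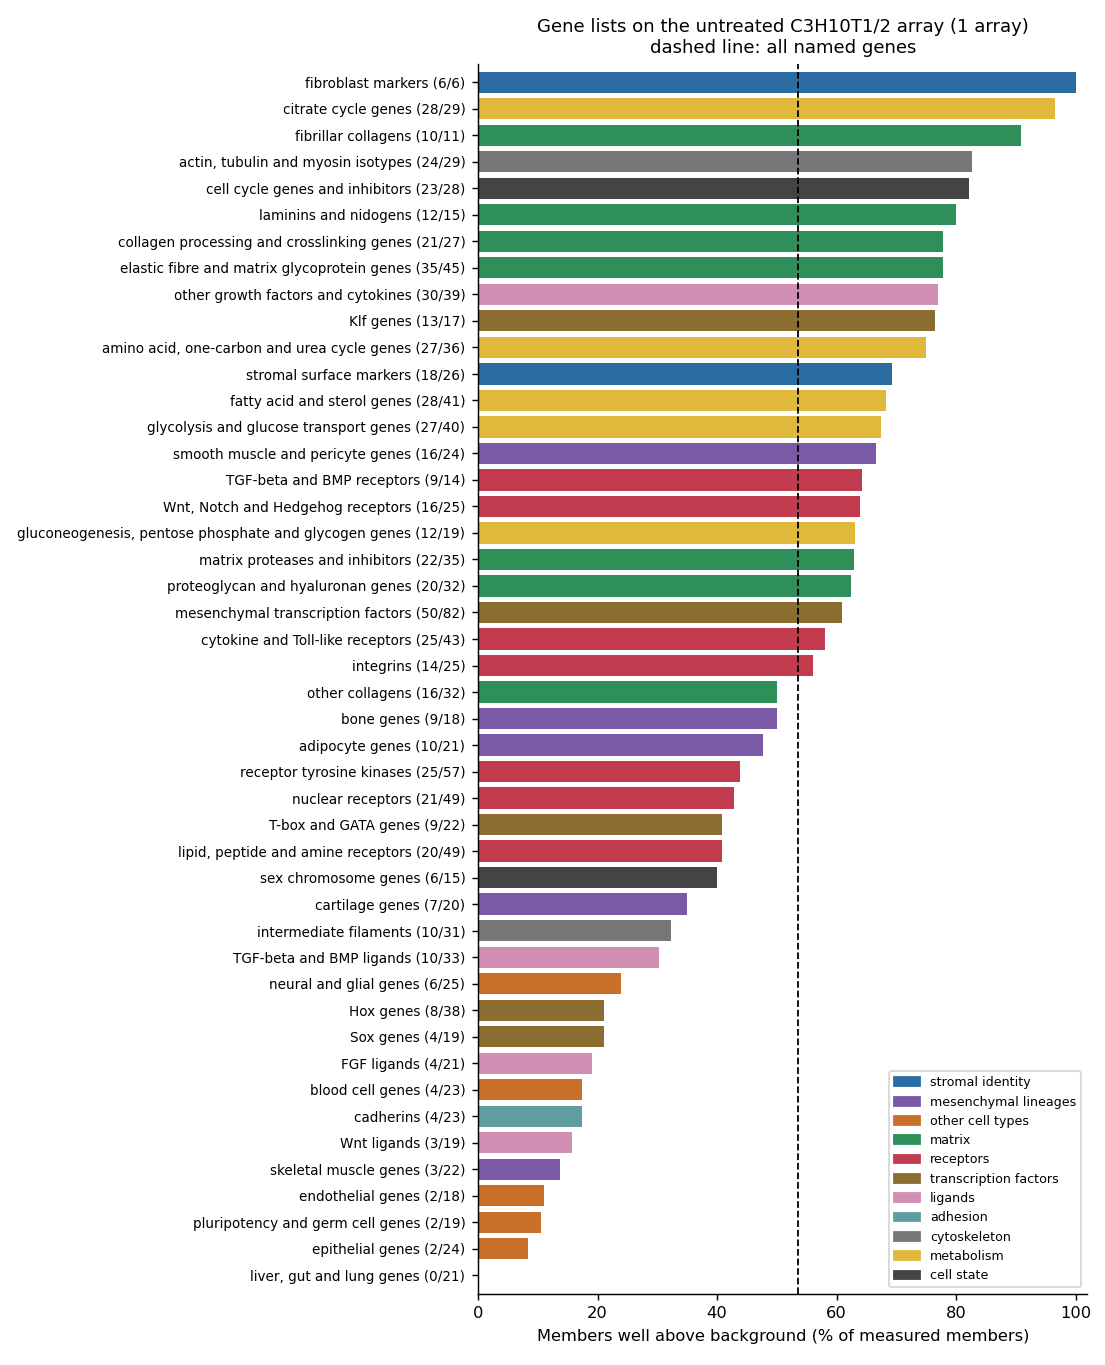
Bars from 0 give, for each of the 46 gene lists, the percentage of measured members well above background on the untreated array, with counts in brackets and colour for the kind of list. The dashed line marks 53.6%, the share of all named genes, and the lists run from 100% (fibroblast markers) to 0% (liver, gut and lung genes).

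Many matrix genes had bright probes. Of 11 fibrillar collagens 10 were called (90.9%, beside 53.6% of all genes), all but Col24a1. Col3a1, the partner of type I collagen in elastic tissues, stood at 5.98 (2 of 3 probes), Col5a1, which nucleates type I fibrils, at 5.36 and Col5a2 at 3.83. Other collagens were called for 16 of 32. The basement membrane chains Col4a1 (4.49) and Col4a2 (4.33) were called by both of their probes, and Col6a1 of the pericellular microfibrils stood at 4.84. Col16a1 (5.54, 1 of 2 probes) and Col18a1 (3.23) were also bright, whereas Col13a1, Col14a1, Col17a1 and Col19a1 had no call. The basement membrane set further held Lamc1 (5.23), Hspg2, perlecan (5.25), Nid1 (4.63) and Lama4 (4.41), and of the 5 laminin alpha chains only Lama4 and Lama5 (3.07) were called.

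Elastic fibre and matrix glycoprotein genes were called for 35 of 45 (77.8%, beside 53.6% of all genes). Of the called genes, 15 lay in the brightest 10% of detected genes. Fn1, fibronectin, was saturated, as were Ccn1, Ecm1 and Emilin2. Ltbp2 stood at 6.44, Fbln2 at 6.18, Ccn2, a matricellular protein, at 6.10, and Postn, periostin, came next (1 of 2 probes). All 4 latent TGF-beta binding protein genes were called, from Ltbp1 at 0.58 (1 of 2 probes) to Ltbp2. Eln, elastin itself, was at 0.39 and its scaffold Fbn1 at 2.38. Tnxb, Vtn, Thbs4, Mfap2 and Mfap4 were not called.

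Among 32 proteoglycan and hyaluronan genes 20 were called (62.5%, beside 53.6% of all genes). The small leucine-rich proteoglycans Dcn, decorin (saturated, 1 of 2 probes), Prelp (6.76), Ogn (4.97), Bgn (4.63, 1 of 2) and Lum (3.93), which organise collagen fibrils, were bright. Vcan, the large proteoglycan of loose connective tissue, was called by 2 of 5 probes (0.73), and the cartilage and brain proteoglycans Acan, Bcan and Ncan by none. All 4 syndecans, heparan sulphate carriers of the cell surface, were called, between 2.49 and 3.97. Has2 (0.81) was the only one of the 3 hyaluronan synthase genes called.

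The enzymes that build collagen were called for 21 of 27 (77.8%, beside 53.6% of all genes). P4hb and Pcolce were saturated, P4ha2 stood at 6.58 (1 of 2 probes), Serpinh1, the collagen chaperone, at 5.80, Ppib at 5.75 and P4ha1 at 5.44. These genes encode proteins that help to hydroxylate, fold or trim procollagen. All 3 lysyl hydroxylases were called, and 4 of 5 lysyl oxidases, which crosslink fibres, led by Lox at 4.84, with no call for Loxl2. Of 21 matrix metalloproteinases 10 were called, a share below the 53.6% of all genes. Mmp14 (6.10), the membrane-bound activator of Mmp2, and Mmp2 (5.99) were bright, followed by Mmp11 (4.16). Mmp3 (-1.83), Mmp9 (-2.16, 1 of 2 probes) and Mmp13 (-2.69) were near the edge. Their inhibitors Timp2 and Timp3 were saturated, Timp1 was at 5.96 and Timp4 had no call.

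Integrins, the receptors for this matrix, were called for 14 of 25 (56.0%), close to the 53.6% of all genes. The common beta chain Itgb1 stood at 4.00 (2 of 3 probes) and Itgb5 at 5.45. Among alpha chains, the laminin receptor Itga6 was at 3.06, Itgav at 2.22 (3 of 6 probes) and Itga5, the fibronectin receptor, at 1.90. The collagen receptor chains Itga1 (0.44) and Itga11 (-1.53) were called and Itga2 and Itga10 were not. Itgb7 (4.34), known mainly from lymphocytes, was called without its usual partners Itga4 and Itgae.

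Receptor tyrosine kinases were called for 25 of 57, below the share of all genes. After Pdgfrb came the collagen receptors Ddr2 (4.14) and Ddr1 (3.66), Epha2 (4.02) and the Wnt co-receptor Ryk (3.46). Egfr stood at 2.26, Axl at 1.84, Igf1r at 1.78, Met at 1.35, Fgfr1 at 1.12 and Insr, the insulin receptor, at -0.92 (1 of 2 probes). Of 4 FGF receptors Fgfr4 alone was not called, and of 14 Eph receptors 6 were. Among the vascular kinases Flt1 was called (1.98, 3 of 5 probes), while Kdr, Flt4, Tek and Tie1 were not. The stem and blood cell kinases Kit, Flt3 and Csf1r and the neurotrophin receptors Ntrk2 and Ntrk3 were not called. Ret, Ror1, Ror2, Erbb3 and Erbb4 were not called either.

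Of 12 kinase receptors of the TGF-beta superfamily 8 were called, with Tgfbr2 at 3.58, Bmpr2 at 2.53 and Acvr1b at 2.52, and Bmpr1a (1.43) and Tgfbr1 (1.23) each by 1 of 2 probes. Bmpr1b, Acvr2a and the co-receptor Tgfbr3 were not called. Among 10 frizzleds, the Wnt receptors, 5 were called, led by Fzd2 (2.99, 1 of 2 probes) and Fzd1 (2.01), and the co-receptor Lrp5 stood at 2.45. All 4 Notch receptors were called, between -2.15 (Notch4) and 1.95 (Notch3). The Hedgehog transducer Smo stood at 4.65 and the co-receptors Gas1 at 3.02 and Boc at 2.71 (1 of 3 probes). Ptch1, which binds the ligand and is itself a Hedgehog target, was not called.

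Cytokine and Toll-like receptors were called for 25 of 43 (58.1%, beside 53.6% of all genes). The shared signalling chain Il6st stood at 5.68 with its partners Osmr (4.31) and Lifr (2.25), while Il6ra was at -2.66 (1 of 2 probes). Il11ra1 read 6.33, but near-identical copies of it in the mouse genome leave its value uncertain. All 4 interferon receptor genes were called (Ifngr1 4.56, Ifngr2 3.40, Ifnar2 3.14, Ifnar1 1.67), as were Tnfrsf1a (4.11), Ghr (3.39) and Il1r1 (1.88). Of 9 Toll-like receptors 4 were called, Tlr2 at 1.90, Tlr4 at 0.46 (1 of 2 probes), Tlr9 at -0.17 and Tlr6 at -1.70. Receptors of blood lineages, among them Epor, Csf3r, Il2ra, Il2rg and Il7r, were without calls.

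Nuclear receptors were called for 21 of 49 (42.9%, beside 53.6% of all genes). Nr4a1, an immediate early gene, was saturated. The thyroid hormone receptor Thra stood at 4.30, the glucocorticoid receptor Nr3c1 at 3.40, Rxrb at 2.96, the vitamin D receptor Vdr at 2.37 and Nr2f2 at 1.24. The estrogen receptors Esr1 and Esr2, the progesterone receptor Pgr and the mineralocorticoid receptor Nr3c2 were not called. Of the 3 retinoic acid receptors only Rarg (-0.33, 2 of 4 probes) was called, and of the 3 peroxisome proliferator receptors only Pparg. Among receptors for lipids, peptides and amines 20 of 49 were called, led by Adgra2 (3.92), the thrombin receptor F2r (3.48), the chemokine decoy Ackr3 (3.37) and Lpar6 (1.40). Cxcr4, Oxtr, Agtr1a and Ednrb had no call.

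Secreted ligands divided by family, with 15.8% of Wnt, 19.0% of FGF and 30.3% of TGF-beta family ligands called, beside 53.6% of all genes. Of 19 Wnt genes 3 were called, all dim (Wnt9a -0.39 and Wnt5b -1.64, each by 1 of 2 probes, and Wnt7b -2.86), and Wnt5a was not. Of 21 FGF genes 4 were called: the epithelial growth factors Fgf7 (2.70) and Fgf10 (0.34), Fgf18 (-0.79) and Fgf21 (-1.43). Of 33 TGF-beta family ligands 10 were called, with Gdf1 at 3.74, Tgfb3 at 3.04, the activin chain Inhba at 2.88, Bmp4 at 2.48, Tgfb1 at 0.14 and Tgfb2 at 0.10. The Gdf1 transcript also encodes Cers1, so its value cannot be given to Gdf1 alone. Bmp2, Bmp7, Gdf5, Gdf11 and Mstn were not called.

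Other growth factors and cytokines were called for 30 of 39 (76.9%, beside 53.6% of all genes). Cxcl12, the stromal chemokine that holds blood-forming cells, was saturated. Its receptor Cxcr4 had no call, while Ackr3, a decoy receptor for it, was called. Csf1, the macrophage growth factor, stood at 5.35, Hbegf, a ligand of Egfr, at 5.14, Pdgfa at 5.06, Vegfb at 4.96 and Vegfa at 4.22. All 4 platelet-derived growth factor genes were called, with Pdgfc at -0.25, Pdgfb at -0.64 and Pdgfd at -2.87 (1 of 2 probes). Igf2 stood at 2.29 and Igf1 at -1.25 (2 of 4 probes), and the BMP antagonist Grem1 at 2.77. Hgf, Angpt1, Gdnf, Ntf3, Csf2, Csf3 and Egf were not called.

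Hox genes, which record position along the body axis, were called for 8 of 38 (21.1%, beside 53.6% of all genes). They came from the Hoxa cluster (6 of 11) and the Hoxc cluster (2 of 8), with none of 10 Hoxb and 9 Hoxd genes called. Hoxa7 stood at 2.76, and other calls were dim, among them Hoxc9 -1.51, Hoxa5 -1.52, Hoxa10 -1.61, Hoxa2 -1.62, Hoxa4 -2.26 (1 of 2 probes) and Hoxc4 -2.53. These dim calls lay in the dimmest 25% of detected genes. With the looser flag 16 of 38 were called.

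Among 19 Sox genes, Sox9, Sox4 (0.94), Sox6 and Sox15 (-2.81) were called (21.1%, beside 53.6% of all genes). Of 22 T-box and GATA genes 9 were called, led by Tbx1 (3.03), a gene of pharyngeal mesoderm, and Tbx3 (1.86, 1 of 2 probes), followed by Gata3 (0.61), Gata6 (0.59, 1 of 3 probes), Gata2 (0.56), Tbx18 (-0.04, 1 of 2) and Tbx15 (-0.77). The limb genes Tbx4 and Tbx5 and the lineage factors Gata1, Gata4 and Eomes were not called. Klf genes were called for 13 of 17 (76.5%). Klf4 (6.22), Klf2 (5.61) and Klf6 (5.59), which respond quickly to serum and stress, were bright, and Klf1, Klf8, Klf14 and Klf17 had no call.

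**Figure D5:**
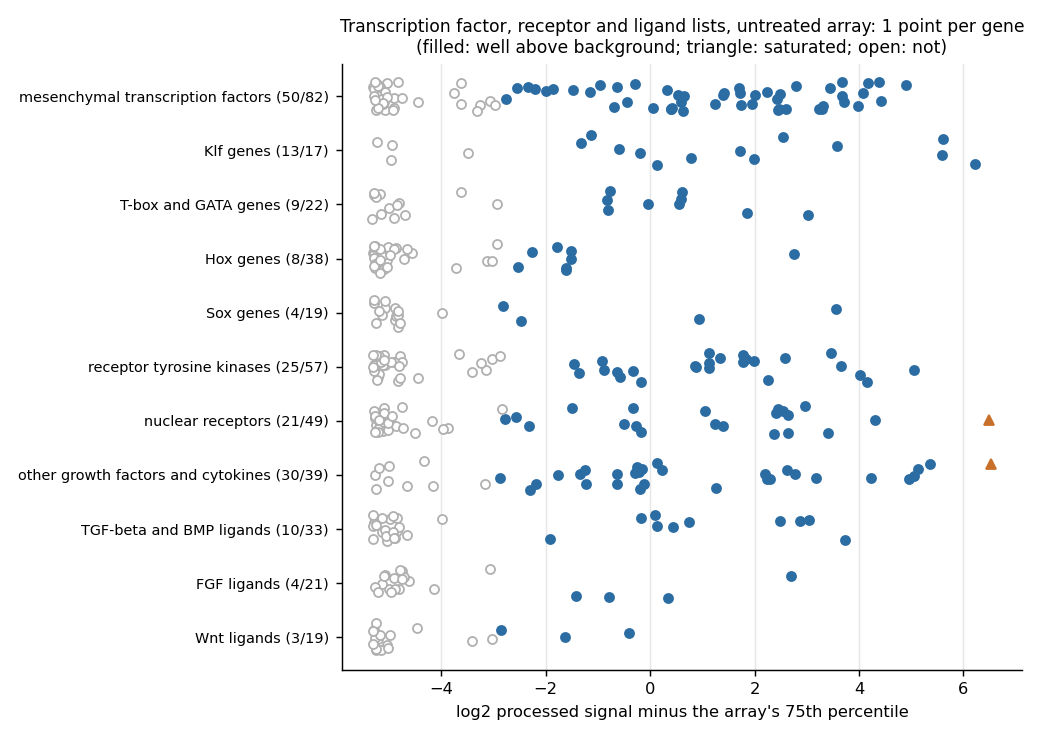
Each point is a gene of a transcription factor, receptor or ligand list on the untreated array, placed by its signal (x axis, log2 processed signal minus the 75th percentile), with called and measured members in brackets. The Klf row reaches 6.22, whereas the Hox row has 1 filled point above -1.5 and the Wnt row none above -0.39.

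Of 23 cadherins 4 were called (17.4%, beside 53.6% of all genes). They were Cdh13 (3.53, 1 of 2 probes), the mesenchymal Cdh11 (2.85), Cdh2, N-cadherin (-1.05, 1 of 3) and Cdh17 (-1.42). The epithelial Cdh1 and the endothelial Cdh5 had no call. Of 31 intermediate filaments 10 were called (32.3%), led by the nuclear lamin Lmna (6.48) and Vim. Of 17 keratins in that list 3 were called: Krt10 (0.11, 1 of 2 probes), Krt16 (-1.14) and Krt7. Actin, tubulin and myosin genes were called for 24 of 29 (82.8%). Of them Acta2, Actg1, Myh9, Tuba1c and Tubb5 were saturated, and Tpm4 (6.33) and Tubb2a (6.29) were close below. Actin and tubulin genes have closely similar coding sequences, and cross-hybridisation between them was not tested.

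Of 40 glycolysis and glucose transport genes 27 were called (67.5%, beside 53.6% of all genes). Every step from glucose to lactate had at least 1 called gene. Slc2a1, the general glucose carrier, stood at 6.10, Hk1 at 5.85, Hk2 at 4.24 and Pkm at 5.69, and Aldoa, Gapdh, Pgk1, Pgam1 and Ldha were saturated. Several liver, muscle or testis forms were not called: Slc2a2, Slc2a4, Pklr, Pgam2, Pgk2, Gapdhs and Ldhc. Several steps had more than 1 called isozyme. All 3 phosphofructokinase genes were called, at 4.81 (Pfkm), 4.75 (Pfkl) and 2.64 (Pfkp). So were all 3 enolase genes: Eno2, known from neurons, at 4.88, the widespread Eno1 at 3.23 and the muscle form Eno3 at 1.26. Ldhb, the lactate dehydrogenase subunit abundant in heart, stood at 2.21.

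Of 29 citrate cycle genes 28 were called (96.6%, beside 53.6% of all genes), all but the lipoyltransferase gene Lipt1. Mdh2, mitochondrial malate dehydrogenase, was saturated, Cs stood at 5.99, and all 4 succinate dehydrogenase subunits were called between 2.26 and 3.84. The pentose phosphate enzymes Tkt (6.23), Taldo1 (6.06) and G6pdx (3.42) were called. Of the gluconeogenic genes, the mitochondrial Pck2 was called at 4.54 and the pyruvate carboxylase Pcx at 1.98. G6pc, Fbp1 and Fbp2, the liver glycogen synthase Gys2 and the phosphorylases Pygl and Pygm were not, while the brain phosphorylase Pygb (1.42) and the general synthase Gys1 (2.90) were.

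Fatty acid and sterol genes were called for 28 of 41 (68.3%, beside 53.6% of all genes). Srebf2 (5.29), Fasn (5.05, 1 of 2 probes), Sqle (4.85) and Scd2 (4.75) were bright, and the oxidation genes Acadvl (4.46) and Cpt2 (3.52) were called. Fabp4 was the only one of 6 fatty acid binding proteins with a call. Cpt1b, the muscle form of an oxidation enzyme, was not called. Of 36 amino acid, folate and urea cycle genes 27 were called, with Odc1, the entry enzyme of polyamine synthesis, saturated and Asns, which makes asparagine, at 6.10. The serine synthesis enzymes Phgdh (4.94), Psat1 (4.51) and Psph (2.67) were called. The liver genes Tat, Tdo2, Hal, Otc and Cps1 were not, nor were both arginases, Arg1 and Arg2.

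Cell cycle genes were called for 23 of 28 (82.1%, beside 53.6% of all genes) at day 15. The replication clamp Pcna stood at 5.30, the proliferation antigen Mki67 at 4.27, Ccnb2 at 4.41, Ccna2 at 3.35 and Cdk1 at 2.95 (1 of 2 probes), and all 3 D cyclins were called. The inhibitor Cdkn1a, p21, stood at 5.25, Cdkn2d at 3.28, Cdkn2c at 2.06 and Cdkn1b at 0.86 (1 of 3 probes). Cdkn2a and Cdkn2b, which share a locus, were not called, nor were Cdkn1c, Cdk2 (-2.92) and Ccna1. Trp53 read -1.03 and Mdm2, a target and inhibitor of p53, 3.96.

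The sex chromosome genes gave calls from X alone. Xist, the RNA that coats the inactive X, was called by 4 of 4 probes with the brightest at 4.14, and Tsix, which overlaps it on the opposite strand, was at -2.63. Ddx3x (3.67), Eif2s3x (3.94), Kdm5c (2.31) and Kdm6a (-1.70, 1 of 2 probes) were called. None of 9 Y-linked members of the list was called, and across chromosome Y none of 17 measured genes was. With the looser flag 4 of those 17 were called.

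The 20 brightest unsaturated genes ran from Litaf (6.77), Prelp (6.76) and Junb (6.75) to Gpc1 (6.43). Besides Vim, Lmna, P4ha2, Ltbp2 and Sparc, which belong to lists above, they included the ribosomal gene Rpl3, the respiratory chain genes Atp5g2, Cox4i1 and Ndufb9, and Nfkbia, Btg1, Ybx1, H2aj, Wfdc18 and Acot13. A further 183 genes were saturated and have no order. By symbol, 58 of them were cytosolic ribosomal proteins, and 32 were members of a list above. Ribosomal protein genes have many processed copies in the genome, and which copies their probes read was not tested.

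Detection by gene family, set by the start of the symbol, ran from housekeeping complexes to sensory receptors. Such a family can also hold related genes, such as kinases or assembly factors. All 78 mitochondrial ribosome genes were called, 80 of 83 ribosomal protein genes, 64 of 67 translation factors, 91 of 97 respiratory chain and ATP synthase genes and 37 of 40 proteasome genes. Solute carriers were called for 175 of 381, cytochrome P450 genes for 17 of 82 and genes with a symbol beginning in Kcn for 8 of 90. The called Kcn genes include potassium channel genes, the noncoding Kcnq1ot1, and Kcnab2, Kcnab3 and Kcnip3, which encode channel-associated proteins. Olfactory receptors were called for 7 of 910, vomeronasal receptors for 2 of 135 and taste receptors for none of 16. Protein-coding genes were detected for 55.8% of 18680, and long noncoding RNA genes for 14.5% of 902. By chromosome the share ran from 44.1% on X, 46.2% on 7 and 47.1% on 6 to 60.8% on 12 and 61.1% on 8, Y aside. Sensory receptor genes, with few calls, were counted in the chromosome shares, and their part in them was not tested. Probe base composition moved with detection too, from 30.3% of probes in the lowest of 4 GC classes to 48.0% in the highest, and its part in these shares was not tested.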

How the data were processed

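One untreated sample of C3H10T1/2 cells was hybridised to an Agilent whole-genome mouse array in 1 colour (Cy3). The authors deposited scanner output with an intensity per spot. It came from Agilent Feature Extraction 10.5.1.1, per the file headers, with spatial detrending, multiplicative detrending, surrogate values and a multiplier of 13 for calling a spot well above background. The deposited value table holds log2 values. Its untreated column differed from log2 processed signal by a constant of 9.45, within 0.01 for 99.8% of 41170 probes, with a column median of -4.23. Its scale and centring are thus those used here, and a single-channel value has no direction. The 2 columns of treated samples in it were not used, nor were the 2 treated arrays. The genome build of the array's coordinates is mm9, per the file.

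Control spots and outlier-flagged spots were dropped, and the log2 values of a probe's other spots were averaged. The 75th percentile over all probes was subtracted. A probe was called where over 50% of its spots had the flag for well above background, and a gene where at least 1 probe was. A gene's signal is that of its brightest called probe. Saturated probes have no order. Of 41174 non-control probes, 4 had no usable spot. Accessions in RefSeq named 25261 probes, symbols 6233 and synonyms 1601. A further 8075 probes kept the file's name and stand in no count of genes. The RefSeq table and promoter windows are of assembly GRCm38.p6. No coordinate was converted between builds.

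The 46 gene lists and the alternatives were written from general knowledge with earlier results of these data known. Named genes were the 20 brightest unsaturated genes, the 6 fibroblast markers, and up to 10 called (brightest first, saturated genes included) and 10 uncalled members per list, with whole small families and members whose probes disagree. Named genes beyond this, and the printed promoters, were chosen after their values were seen. With 1 array no test was possible, and the single array limits how precise any value is. Alternatives were other detection rules, outlier spots kept, names as in the file, normexp (limma 3.58.1 in R 4.3.3, offset 50), the mean of probes, the value table, other scalings and other promoter settings. Other steps used Python 3.11.15, numpy 2.4.6 and pandas 2.3.3, and the calling and counting were tested on simulated data. Listed genes without a usable probe under these names, such as Hbb-b1, Fgf4 and Lif, were not analysed here. Some genes that met the naming rule are left out of the text.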

Additional observations from a re-analysis of the deposited data

How the results depend on the processing

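The number of detected genes and all list counts not named here stayed within 1.5 times their value under every detection rule tried. With the looser flag, a spot positive and significant against background, 66.2% of all genes were called, against 53.6%, and calls rose to 8 skeletal muscle, 12 cartilage, 14 bone, 9 epithelial, 7 endothelial, 12 blood cell, 10 neural and glial, 4 pluripotency and germ cell, and 2 liver, gut and lung genes. They rose to 32 nuclear receptors, 16 Hox, 7 Sox, 7 Wnt, 13 FGF and 16 TGF-beta and BMP ligands, 14 cadherins, 17 intermediate filaments, 10 sex chromosome genes and 4 genes of chromosome Y. A signal of at least 2 times the lowest called one left 49.9% of all genes and 2 Sox genes. Requiring every probe of a gene left 37.2% of all genes, 3 fibroblast markers, 3 cartilage, 0 epithelial, 0 endothelial, 3 neural and glial and 1 pluripotency genes, 3 fibrillar and 10 other collagens, 9 integrins, 14 receptor tyrosine kinases, 9 Wnt, Notch and Hedgehog receptors, 4 T-box and GATA genes, 1 Wnt ligand, 2 cadherins and 3 sex chromosome genes. It left 368 genes on chromosome 1, 344 on 3, 400 on 9, 263 on 13, 227 on 16 and 173 on 18. Requiring at least 50% of a gene's probes left 50.6% of all genes and 1 epithelial gene. Those shifts follow from the rules' construction: a looser flag adds dim probes and a stricter one drops genes with probes that disagree. CpG-rich promoters made up 73.5% of detected and 23.8% of other genes in the upstream part alone, and 58.3% and 15.5% at a minimum ratio of 0.75. TATAAA 20 to 40 bases before the start was found for 1.29% and 4.49%. Scaling to the 75th percentile or the median of called probes lowers every signal by 2.44 or 0.64 and changes no order. The percentile of Thy1, 72.8, was 66.3 with normexp and 80.5 with the mean of called probes, and that mean put Col1a1 at 84.8 and Pdgfra at 62.1. No paired analysis was possible because the result comes from no test and each group has 1 array, and for the same reason no replicate could be left out. A probe within the overlap of called and uncalled signals, -2.98 to -2.41, could change its call with little change in signal.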
